A study of Mus musculus with 8 samples.

Results

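The genes described here are 31 products of the pancreatic acinar cell, taken by name from a deposited table of 31228 genes. The rule uses no measured value, but the list was drawn up with earlier results of these data known. They comprise 6 trypsinogens, 6 chymotrypsinogens or elastases, 2 carboxypeptidases, 6 lipases or lipase cofactors, 2 other enzymes, 6 proteins of the secretory granule or endoplasmic reticulum, and 3 transcription factors. All 31 were found in the table. RNA had been sequenced from C57BL/6 mouse tissue in 8 libraries, with 1 library of extrahepatic bile duct epithelium, 1 of pancreatic duct epithelium, 3 of organoids grown from bile duct and 3 of organoids grown from pancreatic duct. Both epithelia were dissected, minced and digested with collagenase IV, and their RNA was taken without culture. Organoids, which are 3-dimensional epithelial cultures, were grown in Matrigel. Their medium held R-Spondin-1, EGF, Noggin, FGF10, nicotinamide and N-acetylcysteine, with Wnt3A-conditioned medium and the kinase inhibitor Y27632 until lumina had formed, and the cultures were taken at 3 to 4 passages. The age and sex of the mice, the number of mice behind each library and whether the 3 organoids of an organ came from separate animals are not given in the sources used here. The study set out to compare the ducts with each other, and the organoids grown from them.

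Acinar cells make and store the digestive enzymes of the pancreas and release them into the ducts. Proteases are stored as inactive zymogens. Enteropeptidase in the gut activates trypsinogen, and trypsin then activates the other zymogens. In acinar cells many of these genes are switched on by the PTF1 complex, which contains the transcription factors Ptf1a and Rbpjl and binds an E-box next to a TC-box. Duct cells of the pancreas and of the biliary tree arise from a shared region of the foregut and do not make these enzymes in quantity.

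Transcripts of all 31 genes were present in both epithelia, and all 31 were lower in bile duct than in pancreatic duct epithelium. Lower values of any size were found in 52.8% of the 15524 genes that reached 1 FPKM on either side. FPKM is the number of fragments or reads per kilobase of exon, adjusted to library size, and it is quoted here after scaling between libraries unless called deposited. The median member stood in bile duct at 46.8% of its pancreatic duct level, with an interquartile range of 35.3% to 69.5% and extremes of 2.90% (Ctrc) and 91.9% (Cela1). At least 2-fold lower in bile duct epithelium were 15 of the 30 members that reached 1 FPKM, against 4.57% of all genes. At least 2-fold higher were 0 of 30, against 9.1% of all genes. On the log2(scaled FPKM + 1) scale the median difference, bile duct minus pancreatic duct, was -0.92 over the 31 members and -0.03 over all genes. Each epithelium was 1 library, so these differences have no replicate check and carry no test. The libraries are bulk RNA, in which fewer cells of a type and less RNA per cell cannot be told apart.

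**Figure D1:**
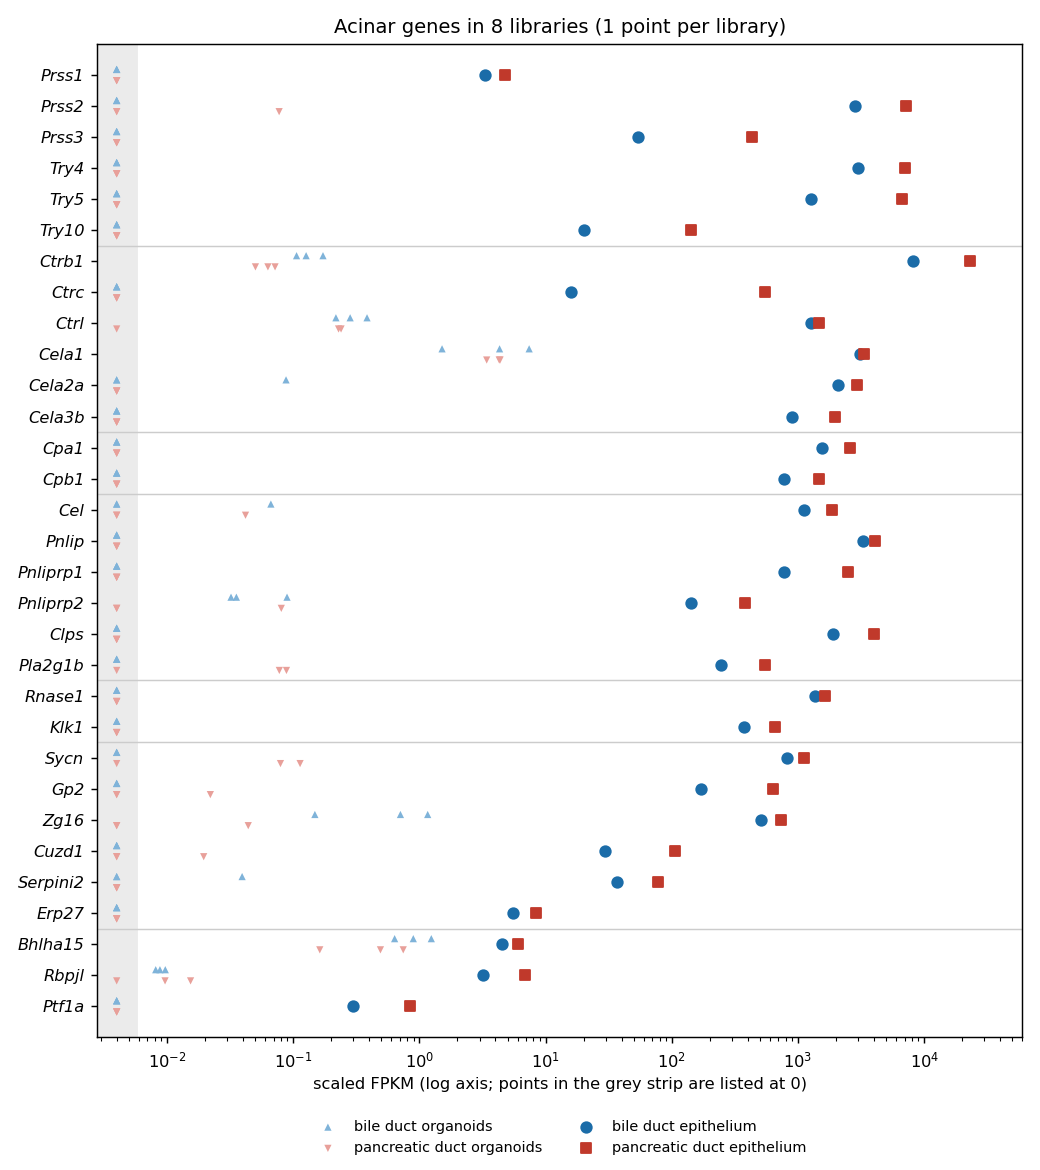
Scaled FPKM of the 31 members on a log axis, with circles for bile duct epithelium, squares for pancreatic duct epithelium and triangles for the 3 organoids of each organ. The grey strip holds values listed at 0, and horizontal lines divide the roles in the order of the text, with trypsinogens at the top and transcription factors at the bottom. Every circle lies to the left of its square, and 16 members have all 6 organoids in the strip.

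Summed deposited FPKM was 7.71% acinar members in the bile duct library and 16.9% in that of pancreatic duct. As a share of reads, which does not weight short genes up, they were 4.20% and 8.02%. Of the members, 12 reached 1000 scaled FPKM in the bile duct library and 16 in that of pancreatic duct. The 50 most abundant genes of each library included 14 members in bile duct and 16 in pancreatic duct. Ctrb1, a chymotrypsinogen, led in both, ranked 5 among all genes of the bile duct library and 2 among those of pancreatic duct. The order of the members was alike in the epithelia. Their log2 levels correlated across the 31 genes at Pearson's 0.958, a description of 1 library against 1, since genes are not replicates and each library has a common scaling. The 21 members with at least 100 scaled FPKM in both epithelia had a median ratio of 52.7%. A further 4, Ctrc, Prss3, Try10 and Cuzd1, reached that level in pancreatic duct alone.

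The trypsinogens are shown first because their reads cannot be assigned with certainty. The 6 members lie on chromosome 6 between positions 41302269 and 41525079, a span of 222.811 kb, and their coding sequences are 88.6% (Prss2 and Prss3) to 97.4% (Try4 and Try5) identical. The first 120 coding bases of each, from a GENCODE M21 transcript, are given below 5′ to 3′. Capitals mark bases that differ from Prss2, which are 7 in Try4, 10 in Try5, 9 in Try10, 9 in Prss3 and 7 in Prss1. The run gatgatgatgacaag, found in 6 of 6, codes for the end of the activation peptide, where enteropeptidase cuts.
Prss2: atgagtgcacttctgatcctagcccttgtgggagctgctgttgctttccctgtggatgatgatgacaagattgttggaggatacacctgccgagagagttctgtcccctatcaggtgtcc
Try4: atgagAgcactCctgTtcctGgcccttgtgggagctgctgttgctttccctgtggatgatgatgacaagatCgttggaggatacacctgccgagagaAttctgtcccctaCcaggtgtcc
Try5: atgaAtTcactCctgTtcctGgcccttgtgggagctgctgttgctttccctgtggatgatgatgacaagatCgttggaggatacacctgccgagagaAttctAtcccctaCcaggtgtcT
Try10: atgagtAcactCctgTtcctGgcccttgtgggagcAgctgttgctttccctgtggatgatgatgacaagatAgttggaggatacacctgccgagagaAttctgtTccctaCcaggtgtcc
Prss3: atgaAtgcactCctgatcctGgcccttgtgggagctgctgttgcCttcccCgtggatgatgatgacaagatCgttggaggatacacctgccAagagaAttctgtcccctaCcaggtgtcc
Prss1: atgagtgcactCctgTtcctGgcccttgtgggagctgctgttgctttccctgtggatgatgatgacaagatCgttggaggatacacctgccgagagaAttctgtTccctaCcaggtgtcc

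Over the whole coding sequence, Prss3 and Prss1 were 96.3% identical, and Prss2 was at most 91.7% identical to another of the 6 (Try4). A stretch of 50 bases that occurs in another gene's transcript cannot be placed by sequence alone. Such stretches made up 66.1% of the Prss3 transcripts (mostly with Gm10334), 65.6% of Try4 (mostly with Try5), 54.9% of Prss1 (mostly with Gm5771), 47.6% of Try5, 40.8% of Try10 and 7.83% of Prss2. How such reads were handled is not given in the sources used here, so the single values below are uncertain.

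Prss2 (ENSMUSG00000057163) had 2822 scaled FPKM in bile duct against 7196 in pancreatic duct epithelium, which is 39.2% (95% counting interval 38.7% to 39.8%). Try4 had 3002 and 6990, or 42.9%. Try5 had 1279 and 6625, or 19.3% (18.9% to 19.7%). These 3 carried most trypsinogen signal, and Try5 differed from its near-copy Try4 in the ratio by more than counting error, though over 1 library a side. Prss3 stood at 53.9 against 430 scaled FPKM, or 12.5% (11.4% to 13.8%). Try10 stood at 20.2 against 143, or 14.2% (12.1% to 16.4%). Prss1 was the weakest trypsinogen, at 3.32 and 4.77, and its 30 and 51 reads leave an interval of 42.8% to 111.5% that includes equality. The ratio therefore ranged from 12.5% to 69.7% within 1 gene cluster. Summed over the 6 genes, trypsinogen signal was 7180 scaled FPKM against 21389, or 33.6%. The sum lessens uncertainty over how reads were divided among the 6. It does not cover reads that may have been left out or counted in other genes. Adding the 4 other trypsinogen genes listed beside them (2210010C04Rik, 1810009J06Rik, Gm5771 and Gm10334) gave 35.2%. Intervals here are exact binomial (Clopper-Pearson) intervals on reads back-calculated from FPKM, and cover counting error only.

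Chymotrypsinogens and elastases, the next proteases activated by trypsin, had ratios from 35.9% to 91.9% apart from Ctrc. Ctrb1 (ENSMUSG00000031957, chr8:111686519-111691010) had 8203 scaled FPKM in bile duct against 22879 in pancreatic duct epithelium, or 35.9%. It made up 22.9% and 29.7% of all member FPKM. Ctrl, a chymotrypsin-like protease, was nearly level at 1279 and 1468, or 87.1% (85.4% to 88.9%). Cela1, a pancreatic elastase, was nearest to equality of all members, at 3079 and 3351 scaled FPKM, or 91.9% (91.0% to 92.7%). Cela2a had 2088 and 2951, or 70.8%, and Cela3b, of which 19.2% is shared with Cela3a in stretches of 50 bases, had 890 and 1953, or 45.6%. Ctrc, chymotrypsin C, which cuts and regulates trypsinogens, was far below the others at 15.9 against 549, or 2.90% (2.55% to 3.28%). Ctrc as annotated in the table (chr4:141814962-141846359) contains the whole of Cela2a (chr4:141814962-141826160) on the same strand. The genes share 305 exon bases, 21.4% of the exon length of Ctrc, and 94 bases of each overlap Casp9 on the opposite strand. Summed, Ctrc and Cela2a stood at 60.1%. The value of Ctrc is uncertain for this reason, and the handling of overlapping genes and of strand is not given in the sources used here.

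Carboxypeptidases, which trim amino acids from peptide ends, fell between these extremes. Cpa1 had 1554 scaled FPKM in bile duct against 2570 in pancreatic duct epithelium, or 60.5%. Cpb1 had 777 and 1476, or 52.7%. Neither reached a 2-fold difference.

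Lipases and their cofactors digest fat. Pnlip, the main pancreatic triglyceride lipase, had 3245 scaled FPKM in bile duct against 4097 in pancreatic duct epithelium, or 79.2%. Its relatives on chromosome 19, within a span of 107.169 kb, were further apart. Pnliprp1 had 780 and 2509, or 31.1%, and Pnliprp2 had 142 and 378, or 37.5%. No stretch of 50 bases in these 3 genes occurred in another gene's transcript, and none of the 3 gave whole reads with the annotation used. Clps, the colipase that anchors Pnlip to fat droplets, had 1898 and 3964, or 47.9%, below the ratio of its enzyme. Cel, bile-salt-activated lipase, had 1120 and 1852, or 60.5%. Pla2g1b, the secreted phospholipase of pancreatic juice, had 244 and 547, or 44.6%. At least 2-fold lower in bile duct were 4 of the 6, namely Pnliprp1, Pnliprp2, Clps and Pla2g1b.

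Rnase1, pancreatic ribonuclease, had 1366 scaled FPKM in bile duct against 1645 in pancreatic duct epithelium, or 83.0%. Klk1, tissue kallikrein, had 370 and 653, or 56.8%. Stretches shared with other kallikrein genes made up 24.0% of Klk1 transcript sequence, so its value may include reads of its relatives.

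Proteins of the granule and endoplasmic reticulum had ratios on both sides of the members' median. Gp2, the main glycoprotein of the zymogen granule membrane, had 171 scaled FPKM in bile duct against 629 in pancreatic duct epithelium, or 27.2%. Cuzd1, a granule membrane protein, had 29.6 and 105, or 28.1%, and Serpini2, a serpin made in pancreas, had 36.6 and 78.3, or 46.8%. These 3 were at least 2-fold lower. Sycn (syncollin), a granule content protein, had 814 and 1122, or 72.6%. Zg16, a granule lectin, had 512 and 740, or 69.2%. Erp27, an endoplasmic reticulum protein, was weak at 5.53 and 8.46, or 65.4%.

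The 3 transcription factors were weak in both epithelia. Bhlha15 (Mist1), which maintains the secretory architecture of acinar cells, had 4.49 scaled FPKM in bile duct against 6.03 in pancreatic duct epithelium, or 74.5% (61.3% to 90.2%). Rbpjl, the acinar subunit of PTF1, had 3.22 and 6.90, or 46.7% (39.6% to 55.0%). Ptf1a, its DNA-binding partner, had 0.30 and 0.85, from 5 and 17 reads, and an interval of 10.0% to 98.4%. Ptf1a did not reach the 1 FPKM minimum, and 609 of its exon bases (40.4%) overlap the antisense gene Ptf1aos. Rbpjl overlaps Matn4 on the opposite strand by 149 bases. None of the 3 reached a 2-fold difference on the log2(scaled FPKM + 1) scale, which understates differences of weak genes.

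**Figure D2:**
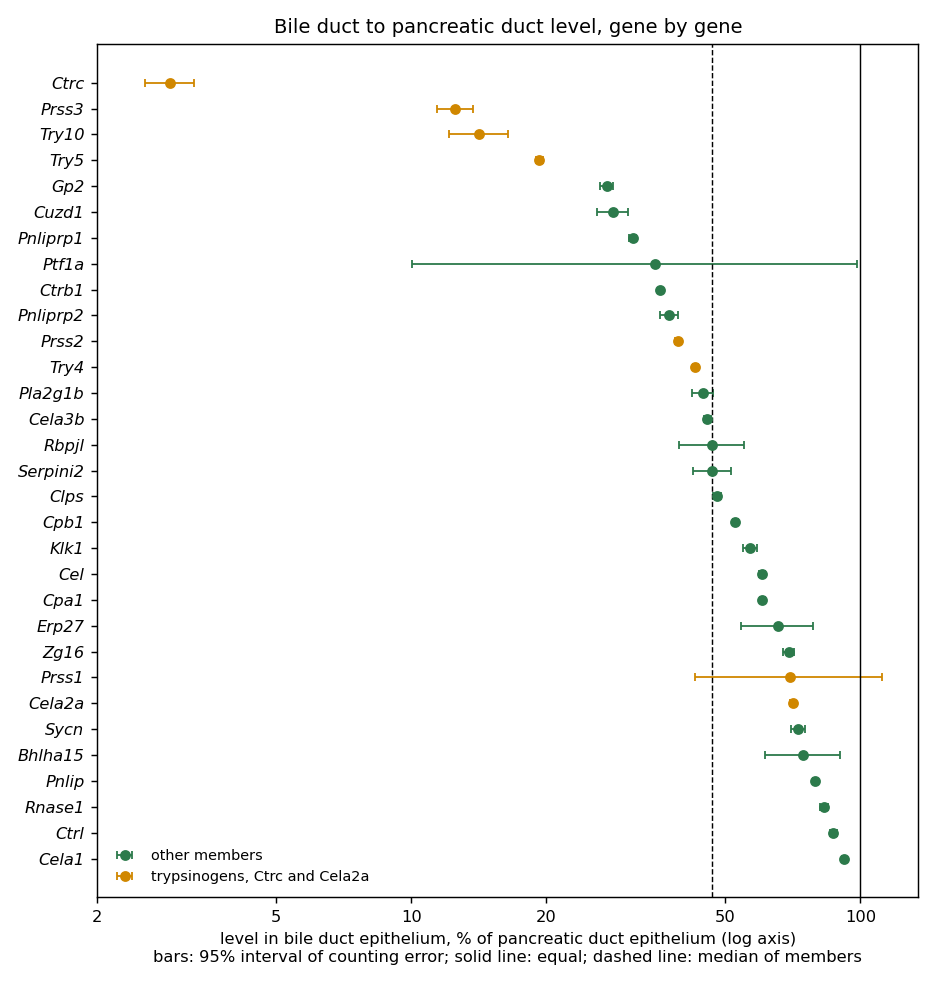
Level of each member in bile duct epithelium as a percentage of pancreatic duct epithelium, on a log axis, with 95% intervals of counting error and 1 library per side. Orange points are the 6 trypsinogens, Ctrc and Cela2a, the dashed line is the median of 46.8%, and the interval of Prss1 alone crosses 100%.

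The 6 trypsinogens with Ctrc and Cela2a had a median of 29.3%, and 4 of them, Ctrc, Prss3, Try10 and Try5, were under 25%. The other 23 had a median of 52.7%, a range of 27.2% (Gp2) to 91.9% (Cela1), and 0 under 25%. Gp2 and Cuzd1 (28.1%), also at the low end, have no stretch of 50 bases in common with another gene. Klk1 (56.8%) and Cela3b (45.6%), which share some, are counted among the 23. What read assignment did to any ratio was not tested. Of these 23, 22 reached 1 FPKM and 9 were at least 2-fold lower. Counting intervals were narrow, with a median ratio of upper to lower bound of 1.06, so most members differed in their ratio by more than counting error. Whether the ratios would differ between repeat libraries cannot be told from 1 library a side. In bile duct epithelium Cela1 made up 8.60% and Pnlip 9.06% of member FPKM, against 4.36% and 5.33% in pancreatic duct. Try5 made up 3.57% and 8.61%.

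Promoters of these genes were examined for the letters of the PTF1 site. RefSeq (GRCm38.p6) windows were matched for 25 of the 31 members, and the 250 bases before the start were searched on both strands. The E-box CACCTG was found in 15 of 25 (60%), against 17.0% of 15782 windows of that length. CAGCTG was found in 5 (20%, against 12.8%), CATCTG in 4 (16%, against 12.0%) and CATATG in 0 (against 1.95%). The TC-box letters TTTCCC were found in 7 (28%, against 22.9%), and TATAAA in 8 (32%, against 9.23%). An E-box of the first 3 kinds within 25 bases of TTTCCC was found in 4 (16%, against 2.00%), namely Cela1, Cel, Ctrb1 and Prss1. The motifs do not overlap one another, and a window may hold several. These 4 windows are given below 5′ to 3′ on the gene's strand, with E-box and TC-box letters of either strand in capitals. Pnlip is shown beside them as an abundant member with neither (its TATAAA is not in capitals).
Cela1 (chr15:100687921-100688170, minus strand): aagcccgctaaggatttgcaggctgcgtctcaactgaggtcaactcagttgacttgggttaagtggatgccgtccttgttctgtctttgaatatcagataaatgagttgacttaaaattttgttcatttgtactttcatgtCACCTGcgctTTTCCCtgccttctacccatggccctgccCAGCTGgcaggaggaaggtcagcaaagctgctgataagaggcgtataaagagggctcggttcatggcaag
Cel (chr2:28563404-28563653, minus strand): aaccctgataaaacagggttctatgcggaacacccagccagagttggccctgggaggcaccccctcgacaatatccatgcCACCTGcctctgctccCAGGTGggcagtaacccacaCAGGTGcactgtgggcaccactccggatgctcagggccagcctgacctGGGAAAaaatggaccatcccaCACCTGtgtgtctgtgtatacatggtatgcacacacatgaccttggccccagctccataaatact
Ctrb1 (chr8:111691011-111691260, minus strand): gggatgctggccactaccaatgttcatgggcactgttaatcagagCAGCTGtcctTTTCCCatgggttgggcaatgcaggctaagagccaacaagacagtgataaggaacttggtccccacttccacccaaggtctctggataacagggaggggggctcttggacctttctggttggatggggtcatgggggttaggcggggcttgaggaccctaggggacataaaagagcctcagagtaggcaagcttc
Prss1 (chr6:41458680-41458929, plus strand): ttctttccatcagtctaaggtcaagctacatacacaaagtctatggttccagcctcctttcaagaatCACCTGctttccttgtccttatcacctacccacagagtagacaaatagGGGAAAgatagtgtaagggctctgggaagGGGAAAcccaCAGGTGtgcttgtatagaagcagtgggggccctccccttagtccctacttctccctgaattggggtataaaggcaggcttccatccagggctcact
Pnlip (chr19:58670115-58670364, plus strand): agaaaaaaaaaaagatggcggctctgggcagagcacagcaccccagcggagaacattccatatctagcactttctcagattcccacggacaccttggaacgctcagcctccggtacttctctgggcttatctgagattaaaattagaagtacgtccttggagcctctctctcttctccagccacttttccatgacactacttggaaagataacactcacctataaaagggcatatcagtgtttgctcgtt

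A match is a description of letters and not a bound site. The ratios between the epithelia of the 4 genes with paired letters were 91.9% for Cela1, 60.5% for Cel and 35.9% for Ctrb1. That of Prss1 was 69.7%, with a wide counting interval of 42.8% to 111.5%. Pnlip, with no E-box or TC-box letters in this window, stood at 79.2%. Whether these letters bear on the ratios was not tested.

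A separate list of 40 acinar genes, of which 37 were in the table and 32 reached 1 FPKM, was read beside the members. It had a median of -0.52, with 7 genes at least 2-fold lower in bile duct and 2 higher. The strongest, 2210010C04Rik, a trypsinogen gene, had 1326 scaled FPKM in bile duct against 2715 in pancreatic duct epithelium, or 48.8%. Dmbt1, a mucosal glycoprotein also made by other epithelia, went the other way at 1966 and 379. Of the amylases, which digest starch, Amy2b had 67.3 and 389, or 17.3%, and Amy2a1 had 173 and 241, or 71.5%. The amylase genes are near-identical copies, and their 6 listed pancreatic members summed to 43.9%. Spink1, a trypsin inhibitor stored with the zymogens, had 72.3 and 174, or 41.5%. The other gene that was at least 2-fold higher was Gata4, at 4.96 and 1.33, a transcription factor of foregut organs.

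Markers of other cells moved between the same libraries. In bile duct epithelium 11 of 12 duct markers were at least 2-fold higher (summed level 3315 against 796 scaled FPKM, led by Krt8). Also higher were 12 of 12 markers of intestinal secretory cells (3326 against 38.5, led by Tff3) and 12 of 14 of absorptive cells (774 against 85.2, led by Fabp1). Of gastric gland markers, 4 of the 5 that reached 1 FPKM were higher (1836 against 292, led by Tff2), as were 8 of 10 hepatocyte markers (475 against 120, led by Ttr), with the other 2 lower. Islet markers were mixed, with 4 of 10 lower and 2 higher (296 against 320, also led by Ttr). Ins2, an insulin gene, had 19.4 against 90.3, which is 21.5%. Endothelial markers summed to 601 against 985, leukocyte markers to 1119 against 770 and fibroblast markers to 1840 against 1916, with at most 1 gene 2-fold lower and 0 higher in each. No duct marker was listed at 0 in either epithelium. Of summed FPKM, mitochondrial genes held 24.9% on the bile duct side and 18.8% on the other. The part of these differences in the lower acinar levels was not tested.

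**Figure D3:**
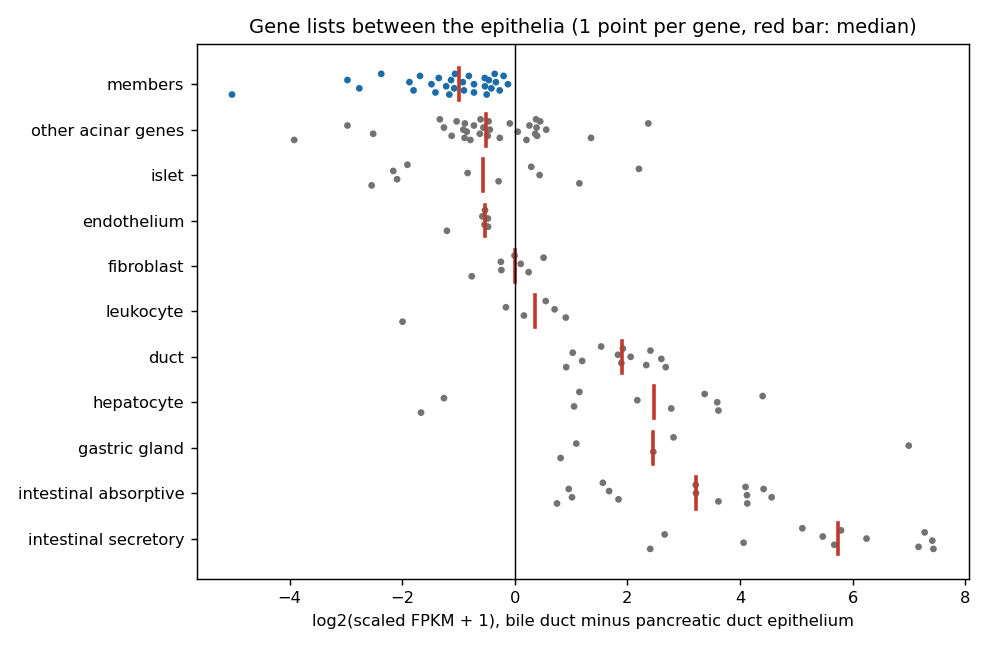
Difference in log2(scaled FPKM + 1), bile duct minus pancreatic duct epithelium, for each listed gene that reached 1 FPKM on either side, with a red bar at the list's median. All 30 members lie below 0, with a median of -0.99, while the medians of duct (1.91) and intestinal secretory markers (5.73) lie above 0.

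In organoids the acinar transcripts were almost gone. The members took between 0.00108% and 0.00335% of summed deposited FPKM in the 6 organoids, all far below the 7.71% and 16.9% of the epithelia. All 30 members that reached 1 FPKM were at least 2-fold lower in the 3 organoids than in the epithelium of the same organ. That was so in bile duct, where 26.3% of all genes were lower and 12.5% higher, and in pancreatic duct, where 25.3% were lower and 15.2% higher. The median change over the 31 members was -9.32 on the log2(scaled FPKM + 1) scale in bile duct and -9.51 in pancreatic duct, against -0.09 and -0.08 over all genes. These values depend on the pseudocount. With every member of 0 to 3 reads over the 3 organoids counted as 3 reads, the median of the members' ratios of epithelium to organoids was 6752 in bile duct (25 members counted so, 21 of them at 0). In pancreatic duct it was 14786 (28 members counted so, 18 of them at 0). These medians depend on that choice of floor.

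Exactly 16 members were listed at 0 in all 6 organoids, among them 13 of the 25 members that reached 100 scaled FPKM in an epithelium. Of all 573 genes of that abundance, 6.63% were at 0 in all organoids. The 16 are the trypsinogens Prss1, Prss3, Try4, Try5 and Try10, the proteases Ctrc and Cela3b, both carboxypeptidases, Pnlip, Pnliprp1, Clps, Rnase1, Klk1, Erp27 and Ptf1a. With the floor of 3 reads over the 3 organoids, Pnlip was at least 140558-fold lower in bile duct organoids than in the epithelium. In pancreatic duct organoids it was at least 169518-fold lower. Such bounds do not cover spread between organoids, and those of Pnlip are approximate, since it did not give whole reads. For Try4 the bounds were at least 47448-fold and at least 105539-fold. For Ptf1a, which was weak from the start, they were at least 8.80-fold and at least 24.1-fold. A further 11 members had at most 3 reads in any organoid. Ctrb1, the most abundant member of both epithelia, had 2, 2 and 3 reads in bile duct organoids and 1 in each pancreatic duct organoid. Rbpjl had 1 read in each bile duct organoid, and 0, 1 and 2 in pancreatic duct organoids. The others of the 11 were Prss2, Cela2a, Cel, Pnliprp2, Pla2g1b, Sycn, Gp2, Cuzd1 and Serpini2.

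The remaining 4 members, Cela1, Bhlha15, Zg16 and Ctrl, made up most of the residue. Cela1 had 1.51, 4.32 and 7.41 scaled FPKM in bile duct organoids 1 to 3 and 4.29, 3.42 and 4.36 in pancreatic duct organoids 1 to 3. It was present in all 6, and the bile duct values spanned the pancreatic duct ones. It was the only member with at least 1 FPKM in 3 or more organoids, and took from 43.8% to 87.8% of member FPKM there. Against the epithelia, at 3079 and 3351, its mean log2(scaled FPKM + 1) changed by -9.32 and -9.39. Its reads are approximate, since Cela1 is among 6 members whose FPKM did not give whole reads with the annotation used.

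Bhlha15, the transcription factor, had 0.64, 1.24 and 0.90 scaled FPKM in bile duct organoids and 0.16, 0.49 and 0.75 in pancreatic duct organoids, from 9 to 93 reads. It had fallen least of the members that reached 1 FPKM, with a mean of 0.925 ± 0.305 (SD, n = 3) against 4.49 in bile duct epithelium, and 0.466 ± 0.292 (SD, n = 3) against 6.03 in pancreatic duct. The organoid groups overlapped. Zg16, the granule lectin, had 0.71, 0.15 and 1.16 in bile duct organoids, from 16, 4 and 29 reads. In pancreatic duct organoids it had 0, 1 and 0 reads. The groups did not overlap, but the lowest bile duct organoid had 4 reads. Ctrl had 8, 7 and 5 reads in bile duct and 0, 5 and 6 in pancreatic duct organoids, which overlap.

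**Figure D4:**
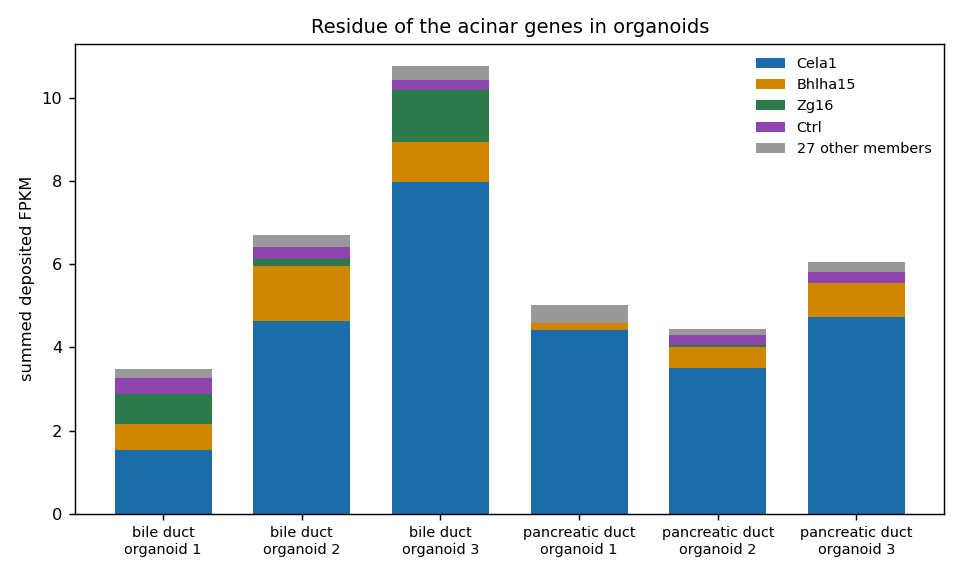
Summed deposited FPKM of the 31 members in each of the 6 organoids, stacked by gene with Cela1 at the base. Sums run from 3.49 to 10.8, Cela1 is the largest piece in every organoid, and the Zg16 piece is larger in the bile duct organoids.

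Bile duct and pancreatic duct organoids could be compared with replicates. Summed deposited FPKM of the members was 6.99 ± 3.65 (SD, n = 3) in bile duct and 5.18 ± 0.810 (SD, n = 3) in pancreatic duct organoids. The difference of 1.81 was within the spread (exact two-sided permutation p = 0.6, where 0.1 is the smallest p that 3 against 3 allows). Without bile duct organoid 3 the difference was -0.0792, and without bile duct organoid 1 it was 3.56 (exact two-sided permutation p = 0.1, the smallest possible). Without Cela1, a choice made after its share had been seen, the sums were 2.27 ± 0.442 and 0.957 ± 0.349 (SD, n = 3 each), with no overlap and the smallest p this design can give (exact two-sided permutation p = 0.1). Most of that difference lay in Zg16 and Bhlha15. With these left out as well, the sums were 0.560 to 0.602 in bile duct and 0.400 to 0.498 in pancreatic duct organoids.

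Over all genes, limma's moderated test found 0 of 12094 with a Benjamini-Hochberg adjusted p under 0.05, which is a background of 0.0%, and 307 at an unadjusted p under 0.05. Cela1 was the only member with enough signal to be tested, and differed by -0.05 (SE 0.43, log2, bile duct minus pancreatic duct organoids, limma adjusted p = 1.00). Without bile duct organoid 1 this difference was 0.43, and without pancreatic duct organoid 3 it was 0.00, so its direction was not settled. With no minimum level, 15 members could be tested and 0 passed the adjusted threshold, while 2 had an unadjusted p under 0.05 in limma, as had 683 of all 26795 genes in that fit. These were Zg16, which differed by 0.70 (SE 0.23, limma adjusted p = 0.98), and Ctrb1, which rests on at most 3 reads a library. Of the 15 members above 0 in any organoid, these 2 had organoid groups that did not overlap, both higher in bile duct organoids. Groups without overlap were found in 5.47% of all genes above 0 in any organoid. Overlap and p-value were read from the same values. Replicates are separate organoid samples by their labels, and these p-values measure only the spread between them, which may be technical.

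Other genes gave a setting for the loss. Of the separate acinar list, 23 of 30 genes tested in bile duct were at least 2-fold lower in organoids, against 26.3% of all genes. In pancreatic duct 25 of 32 were, against 25.3% of all genes. Of the 37 genes of that list in the table, 14 were listed at 0 in all 6 organoids, among them 2210010C04Rik, Amy2b and Amy2a1. Xbp1, a transcription factor of secretory cells in general, had 105 (bile duct) and 81.4 (pancreatic duct) scaled FPKM in the epithelia and from 63.7 to 165 in organoids. Nr5a2, a partner of the acinar program also made in other gut epithelia, had 2.80 and 3.04 in the epithelia and 0.12 to 2.09 in organoids. The loss was not limited to acinar genes. Fibroblast markers summed to at most 2.49 scaled FPKM in an organoid (7 of 7 at least 2-fold lower in each organ), against 1840 and 1916 in the epithelia. Endothelial markers summed to at most 0.37 (6 of 6 lower in each organ), against 601 and 985. Leukocyte markers summed to at most 1.46 (6 of 6 lower in bile duct, 5 of 5 in pancreatic duct), against 1119 and 770. Islet markers that reached 1 FPKM were lower in 9 of 9 in bile duct and 10 of 10 in pancreatic duct, and 5 of the 12 were listed at 0 in all 6 organoids. In bile duct organoids 12 of 12 intestinal secretory, 13 of 14 absorptive, 5 of 5 gastric gland and 8 of 10 hepatocyte markers were also lower. In pancreatic duct organoids these counts were 3 of 8, 6 of 10, 2 of 2 and 6 of 9. There 3 secretory markers and 1 absorptive marker were higher. Duct markers summed to between 5149 and 10900 in the organoids, against 3315 and 796 in the epithelia. Of the 12, 5 were higher and 1 lower in bile duct organoids, 11 were higher and 0 lower in pancreatic duct organoids, and none was listed at 0. The part of these differences in the lower acinar levels was not tested.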

How the data were processed

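Values are FPKM as deposited by the authors in 1 table, with 1 column per library and 0 columns left aside. The unit was read from the values. The submitters' processing notes name Bowtie2 2.2.3, HISAT2 2.1.0, TopHat2 and HTSeq 0.6.0 without saying what each did. The genome build, filters, strand and treatment of shared reads are not given in the sources used here. Coordinates are those of the table, and 26 of 31 members have identical coordinates in GENCODE M21 (GRCm38). Per the labels, the NEBNext Ultra kit was used on poly-T-selected RNA.

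FPKM times exon length gave whole reads, within 0.05 of a read, for 28268 genes (90.5%) in all libraries, and for 25 of the 31 members (not Pnlip, Pnliprp1, Pnliprp2, Clps, Cela1 and Rnase1). The implied depth was 12876470 to 20828217 reads per library. Libraries were scaled by a trimmed mean of log ratios, trimming 30% of ratios and 5% of levels on each side, and log2(FPKM + 1) was compared with a minimum of 1 FPKM. Organoid groups were fitted with limma 3.58.1 (R 4.3.3), with an intensity trend, a minimum of 1 FPKM in 3 organoids and Benjamini-Hochberg adjustment. What size of difference this fit can find with 3 organoids a side is not reported here. Samples were grouped by their source labels. Alternatives covered scaling, pseudocount, minimum level, the trypsinogens with Ctrc and Cela2a, the replicate block and leaving out each organoid. Python 3.11.15, pandas 2.3.3 and scipy 1.17.1 did the rest.

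The members and lists were chosen with earlier results of these data known. All members are accounted for. Full values are given for members of at least 100 FPKM in an epithelium, transcription factors and members of at least 1 FPKM in an organoid, with the 6 strongest genes of the other acinar list and the strongest of each marker list. Of these, 1 gene that met the rule is not reported here. Ins2, Gata4, Xbp1 and Nr5a2 were named after their values were seen.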

Additional observations from a re-analysis of the deposited data

How the results depend on the processing

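All 31 members kept their direction between the epithelia with FPKM as deposited, with a pseudocount of 0.1 and with scaling to genes outside the acinar lists and mitochondria. That last scaling shifts every gene by -0.10 (log2), and FPKM as deposited shifts organoids against epithelium by 0.27 in bile duct and 0.28 in pancreatic duct. The median difference of -0.92 became -1.03 with that scaling, -1.08 with a pseudocount of 0.1, -1.10 with a minimum of 10 FPKM, -0.82 without the 8 members that are trypsinogens, Ctrc or Cela2a, and -0.82 with families of shared reads summed (an alternative added after the data were seen). The count of members at least 2-fold lower was 15 of 30, and 9 of 22 without those 8. Klk1 and Cela3b, which also share stretches of sequence, stayed in. Without mitochondrial genes the members took 10.3% and 20.8% of summed FPKM. The median change to organoids was -11.68 (bile duct) and -12.68 (pancreatic duct) with a pseudocount of 0.1, and with FPKM as deposited -9.29 in pancreatic duct and -9.06 in bile duct. Leaving out 1 organoid gave -9.53 to -9.50 in pancreatic duct and -9.60 to -8.85 in bile duct. Leaving out 1 organoid at a time, limma called 0 to 11 genes between organoid groups, the 11 without pancreatic duct organoid 3. The Cela1 difference ran from -0.45 to 0.43 and that of summed member FPKM from -0.0792 to 3.56. The cause of these shifts was not tested.

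Between same-numbered organoids of the organs, correlations of their deviations were -0.10, -0.44 and 0.48. Values so few and of mixed sign cannot tell whether the organoids were paired. With the replicate number as a block, limma called 0 genes (288 at an unadjusted p under 0.05) and Cela1 differed by -0.05 (adjusted p = 1.00). Depth limits weak members, since 5 and 17 reads stand behind Ptf1a and at most 3 reads per organoid behind 11 members.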
